A study of Mus musculus with 9 samples.

Results

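The later response of the dentate gyrus is described here as the difference between the groups E4 and E0, over all genes whose mean count reached 10 in the authors' deposited table of that comparison. There are 13475 such genes of the 24015 in the table. The mean count is a gene's count divided by a factor for the depth of its library and averaged over the 6 libraries. Membership rests on this level alone, with no condition set on the difference between the groups. The level averages E0 and E4 together, so a gene at a low count in E0 can enter through its count in E4, or the reverse. Membership is therefore not independent of the difference. On the excluded side of the limit lay Calr3, Gm20751 and B430212C06Rik with mean counts of 9.987, 9.991 and 9.996, and on the included side Cks1b, Pthlh and Rab39 with 10.002, 10.005 and 10.008 in the authors' deposited table.

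The study's question is what firing of neurons changes in RNA levels and in open chromatin of the adult mouse brain. Both groups were C57BL/6 mice of 8 weeks with no transgene or mutation named in the labels, and each of the 3 libraries per group was made from the dentate gyrus RNA of 1 mouse. The labels give no unit for the number in a group's name. From knowledge of the study, and not from the labels, E0 stands for unstimulated mice, E4 for mice taken 4 h after a single electroconvulsive stimulation, and E1 for mice taken 1 h after it. Such a stimulation makes the granule neurons, the principal cells of the dentate gyrus, fire together. It is an intense stimulus given to the whole brain, and the tissue holds glia and vessels beside the neurons. A difference in a bulk sample can come from fewer cells of a type or from less RNA per cell, and these cannot be told apart here.

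Neurons respond to firing in waves. Immediate early genes, many of which encode transcription factors such as Fos and Egr1, are transcribed within minutes and their RNAs are short-lived, and a later set of genes follows that includes secreted factors, receptors and ion channels. In the dentate gyrus, known products of the response act on synapses, on the excitability of granule neurons, and on the newborn neurons that this region makes throughout life.

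What is available for each gene are the authors' estimates, not values per mouse. The log2 fold change is the difference of E4 from E0 on the log2 scale, so that positive values are higher in E4, and it is given below with its standard error as "value ± SE". A gene is called raised or lowered where the authors' adjusted p was below 0.05, and "rose" and "fell" refer only to called genes. Levels in E0 and E4 are the mean counts implied by a gene's overall mean count and its fold change, and they are not corrected for gene length, so they compare groups and not genes. The fold changes appear shrunken toward 0, so the implied levels of the 2 groups may lie too close together, above all for genes of low count. Because no value per mouse is used, the spread within a group enters only through the SE, and whether the mice of the 2 groups overlap was not analysed here. The steps of single reads in the table place the libraries at about 6140000, 9090000 and 10960000 reads in genes in E0 and about 10020000, 10230000 and 13550000 in E4.

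**Figure D1:**
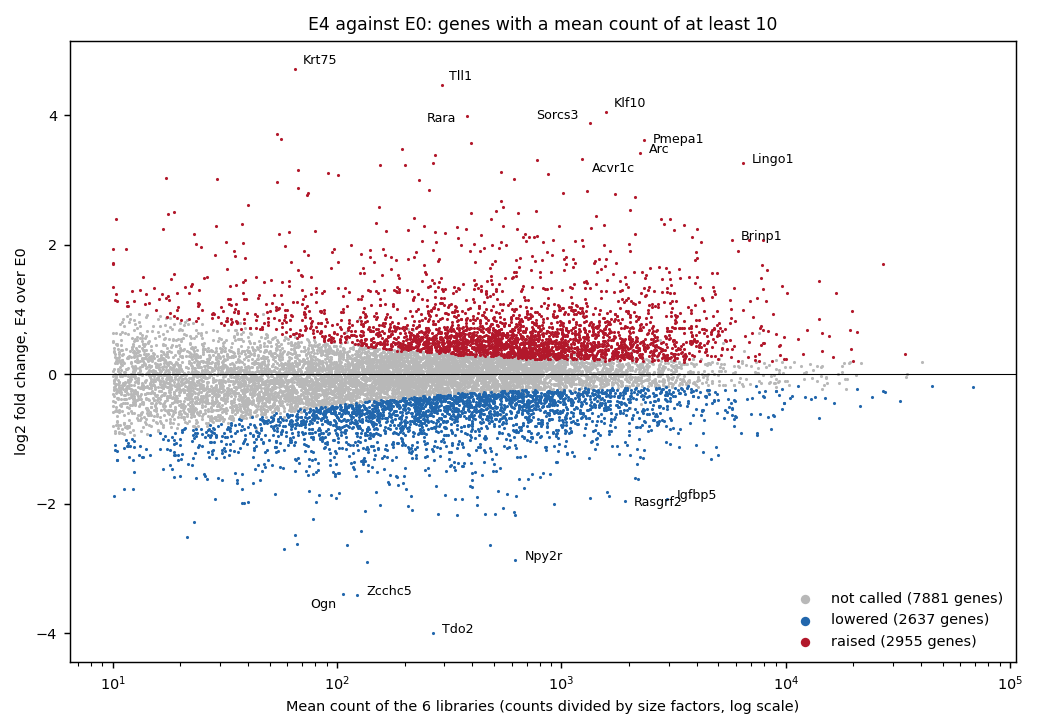
Log2 fold change of E4 over E0 (vertical axis) against mean count over the 6 libraries (horizontal axis, log scale) for the 13475 genes. Points are genes, coloured by call, and 2955 raised and 2637 lowered genes lie on either side of 0, with the largest rises reaching further from 0 than most of the largest falls.

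Of 13473 genes with an adjusted p, 5592 were called, which is 41.5%. Raised genes made up 21.9% of those tested and lowered genes 19.6%. Most differences were small. The median log2 fold change was 0.56 among raised genes and -0.60 among lowered genes, and the median SE over all genes was 0.150. The tails were unequal. At a log2 fold change of at least 1, 532 genes were raised and 445 lowered, at 2 or more 103 and 27, and at 3 or more 26 and 3.

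The balance between raised and lowered genes moved with the level of the gene. Among genes with a mean count from 50 to under 200, 10.4% were raised and 20.8% lowered. Among those with 1000 or more, 41.7% were raised and 22.3% lowered. The share called rose from 14.0% in the lowest class to 31.2%, 50.9% and 64.1% in the next classes, while the median SE fell from 0.345 to 0.0951 in the highest, so that smaller differences could be called. For lists of abundant genes the shares by class are the closer comparison. Whether depth, which was lower in 2 of the E0 libraries than in any E4 library, has a part in this balance was not tested.

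**Figure D2:**
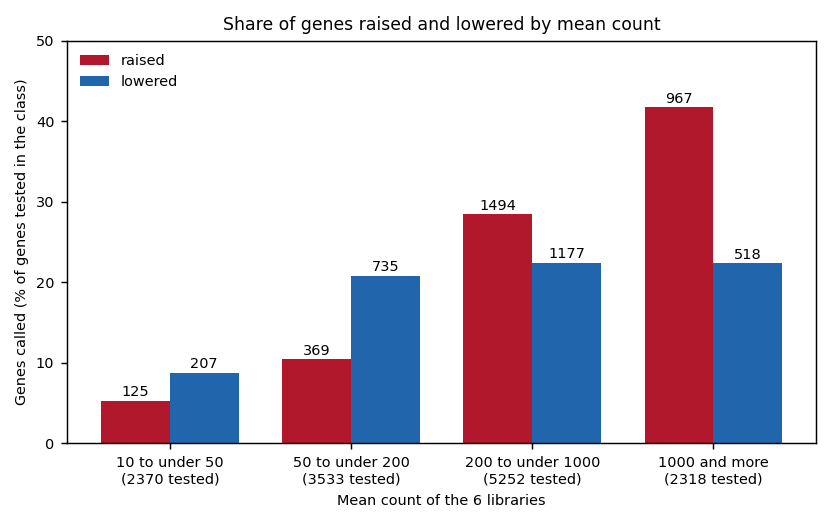
Share of tested genes that were raised (red) or lowered (blue) in E4, by class of mean count, with the number of genes above each bar. Lowered genes outnumber raised genes below a mean count of 200. Raised genes outnumber lowered genes from 200 to under 1000 (1494 against 1177) and from 1000 upward (967 against 518).

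The 25 raised genes with the largest log2 fold change at a mean count of at least 50 were of mixed kinds: secreted and surface proteins, nuclear factors and enzymes. Lingo1, a partner of the Nogo receptor that limits axon growth and myelination, had an implied mean count of 1211 in E0 and 11647 in E4, a log2 fold change of 3.27 ± 0.25 in the authors' deposited table. Acvr1c, an activin-type receptor also called ALK7, went from an implied 226 to 2252 (3.32 ± 0.12 in the authors' deposited table). Several of these genes were at low counts in E0. Tbx21, a T-box factor best known from T cells, had an implied mean count of 8.39 in E0 and 104 in E4 in the authors' deposited table, and Krt75, a keratin of hair follicles, had 4.78 and 125.

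Other large rises were those of sorting receptors, adaptors, nuclear proteins and enzymes. Klf10, a zinc finger factor induced by TGF-beta, rose by 4.05 ± 0.13, and Sorcs3, a sorting receptor of neurons, by 3.88 ± 0.15 in the authors' deposited table. Fam43b rose by a log2 fold change of 3.30 ± 0.15, Blnk, an adaptor of B cell receptor signalling, by 3.27 ± 0.20, and Fndc9 by 3.11 ± 0.28 in the authors' deposited table. Cenpa, the histone variant of centromeres, rose by 3.24 ± 0.21, and Zfp703, a zinc finger repressor, by 3.12 ± 0.17 on the same scale in the authors' deposited table. Sult2b1, which adds sulfate to sterols, rose by 2.99 ± 0.21 in the authors' deposited table. The genes with the largest statistic, the log2 fold change over its SE, add Etv3, an Ets-family repressor, at 2.83 ± 0.12, Fmnl1, a formin that nucleates actin filaments, at 2.11 ± 0.09, and Brinp1 at 2.07 ± 0.09 in the authors' deposited table.

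Large falls included receptors, channels and enzymes. The largest was that of Tdo2, which opens the ring of tryptophan, from an implied mean count of 502 to 31.4 in the authors' deposited table. Npy2r, a presynaptic receptor for neuropeptide Y, fell from an implied mean count of 1096 to 150.5 (-2.86 ± 0.15 in the authors' deposited table). Htr1a, an inhibitory serotonin receptor, fell from 562 to 125 (-2.17 ± 0.15 in the authors' deposited table), and Mc4r, a melanocortin receptor, from 114 to 18.6 (-2.61 ± 0.28 in the authors' deposited table). Abcc8 encodes the sulfonylurea receptor subunit of ATP-sensitive potassium channels and fell from an implied 824 to 185 (-2.16 ± 0.15 in the authors' deposited table). Scnn1a, a subunit of the epithelial sodium channel, was at -2.42 ± 0.20, and Gpr12, an orphan receptor that raises cyclic AMP, at -2.09 ± 0.18 in the authors' deposited table. Among proteins of the surface, Fat4, a giant atypical cadherin, was at -2.18 ± 0.14 and Pcdh20, a protocadherin, at -1.62 ± 0.09 in the authors' deposited table. By the size of the statistic the list adds Rasgrf2, a calcium-regulated activator of Ras, at -1.95 ± 0.09, Igfbp5, which binds insulin-like growth factors, at -1.93 ± 0.10, and Pde1b, a calmodulin-dependent phosphodiesterase, at -1.61 ± 0.09 in the authors' deposited table.

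The same genes had these values 1 h after stimulation, in a comparison that uses the same E0 libraries, so the 2 sets of values are given side by side with no test between them. In E1 37.5% of the genes tested were called. Of the raised genes, Arc stood at 6.65 ± 0.14 in E1 and 3.41 ± 0.33 in E4, Inhba at 4.63 ± 0.26 and 3.23 ± 0.21, and Cenpa at 4.93 ± 0.20 and 3.24 ± 0.21 in the authors' deposited tables. Tbx21 was at -0.26 ± 0.53 in E1, Fam43b at -0.21 ± 0.26, Blnk at -0.15 ± 0.39 and Tgif2 at -0.16 ± 0.53 in the authors' deposited table, and none of these 4 was called there. Of the lowered genes, Mc4r was at -2.28 ± 0.37 in E1 and -2.61 ± 0.28 in E4, whereas St3gal1, a sialyltransferase, was at -0.18 ± 0.19 and -2.16 ± 0.18 in the authors' deposited tables. Tmem74 had called values on both sides of 0, at 0.89 ± 0.23 in E1 and -2.48 ± 0.26 in E4 in the authors' deposited tables.

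**Figure D3:**
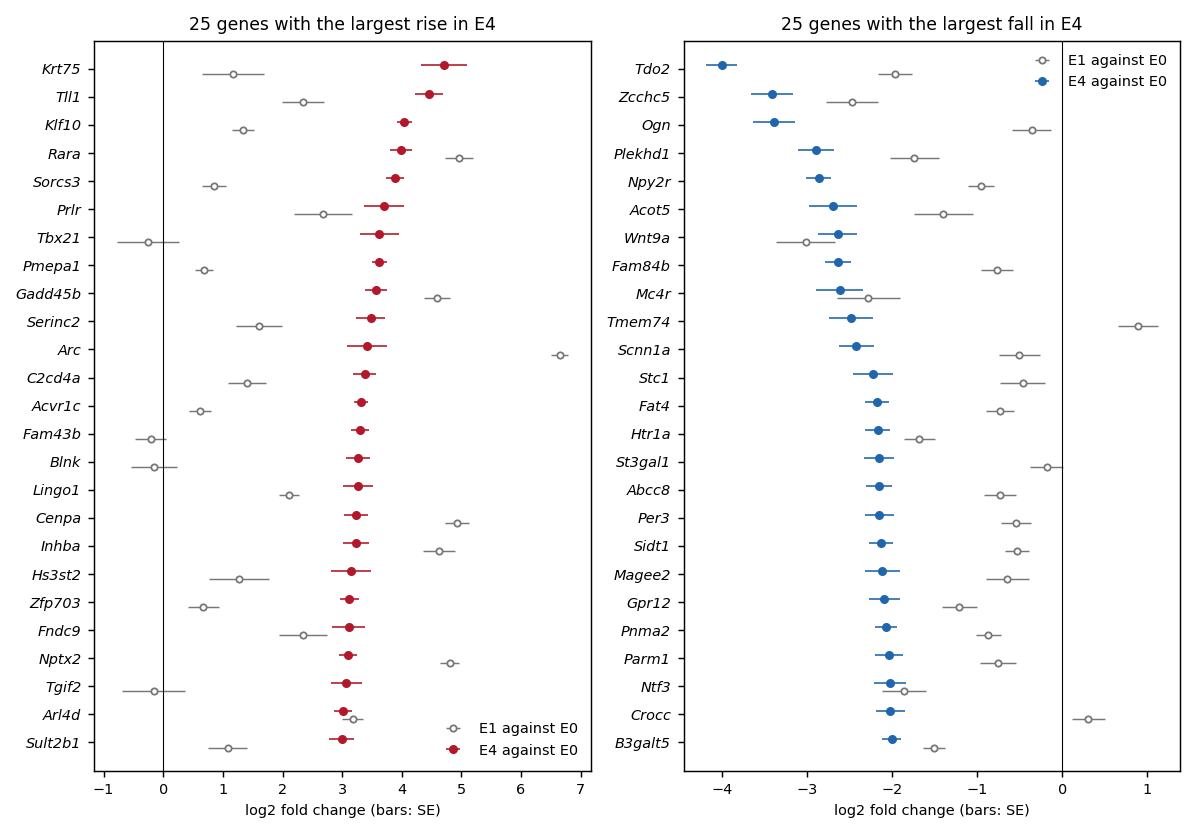
Log2 fold change over E0 (horizontal axis, bars are SE) of the 25 raised (left) and 25 lowered (right) genes with the largest change in E4 at a mean count of at least 50. Filled points are E4 against E0 and open points E1 against E0, which shares the E0 libraries, and in the left panel the open points range from below 0 for Tbx21 to above 6 for Arc.

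Genes induced by cyclic AMP and calcium often carry a CRE, the site bound by CREB, close to their start. The palindromic form TGACGTCA was searched in the RefSeq promoter table (build GRCm38.p6, 250 bases before to 50 after each start), where 1.79% of all 32851 promoters and 2.89% of the 13754 promoters of the genes described here hold it; the word reads the same on both strands, so 1 search covers both. Promoters were found for 25 of the 31 raised and 22 of the 31 lowered genes named by size or statistic, and 2 raised genes and 1 lowered gene hold the word. They are printed in full, 5′ to 3′ on the gene's strand, with the word in capitals, because they are the ones among these named genes that hold the word. Hs3st2 (chr7:121392046-121392345, plus strand) encodes a brain-enriched heparan sulfate sulfotransferase, and its CRE begins 69 bases before the start. Arl4d (chr11:101665291-101665590, plus strand) encodes a small GTPase of the Arf family, and its CRE begins 26 bases before the start. Hlf (chr11:90390868-90391167, minus strand) encodes a clock-controlled transcription factor, and its CRE begins 9 bases before the start.
Hs3st2: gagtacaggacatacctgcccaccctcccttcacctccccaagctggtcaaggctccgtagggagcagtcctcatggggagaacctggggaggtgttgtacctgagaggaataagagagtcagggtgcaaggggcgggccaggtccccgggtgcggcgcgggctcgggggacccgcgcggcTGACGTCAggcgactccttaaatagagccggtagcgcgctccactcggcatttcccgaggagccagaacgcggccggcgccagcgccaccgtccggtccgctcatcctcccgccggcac
Arl4d: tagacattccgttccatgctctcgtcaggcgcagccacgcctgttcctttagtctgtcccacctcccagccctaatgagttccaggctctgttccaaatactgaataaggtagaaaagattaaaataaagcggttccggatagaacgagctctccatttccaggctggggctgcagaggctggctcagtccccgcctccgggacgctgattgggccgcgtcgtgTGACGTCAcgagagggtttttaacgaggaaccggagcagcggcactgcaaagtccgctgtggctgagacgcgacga
Hlf: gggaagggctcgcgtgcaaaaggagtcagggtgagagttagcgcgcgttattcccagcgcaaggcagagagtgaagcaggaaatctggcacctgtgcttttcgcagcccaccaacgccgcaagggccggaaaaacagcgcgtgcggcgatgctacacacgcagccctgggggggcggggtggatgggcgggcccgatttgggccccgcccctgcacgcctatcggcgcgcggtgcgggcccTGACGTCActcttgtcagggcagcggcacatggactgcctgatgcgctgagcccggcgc

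The expression of the 3 genes differed. Hs3st2 rose from an implied mean count of 13.6 to 121 (3.15 ± 0.34 in the authors' deposited table). Arl4d rose from 135 to 1093 (3.02 ± 0.15 in the authors' deposited table). Hlf went the other way, from 2554 to 691 (-1.89 ± 0.09 in the table the authors deposited). The same word thus stands before genes that rose and a gene that fell, and a match to it is a description of the letters only. Of all 13475 genes, 79.3% had a promoter in the table, which is under the 80% needed to compare sets, so shares of motifs between raised and lowered genes are void and not given.

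For gene lists the counts are read beside the background of 21.9% raised, 19.6% lowered and a median log2 fold change of -0.003 over all genes tested. For lists of abundant genes the shares by class are closer. They were 28.4% raised and 22.4% lowered at mean counts from 200 to under 1000, and 41.7% and 22.3% at 1000 or more. The lists are short and of known function, and no test of a list was made. They were chosen with earlier results of these data known, so the direction of a list is no independent result. The plot of gene lists shows them together.

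**Figure D4:**
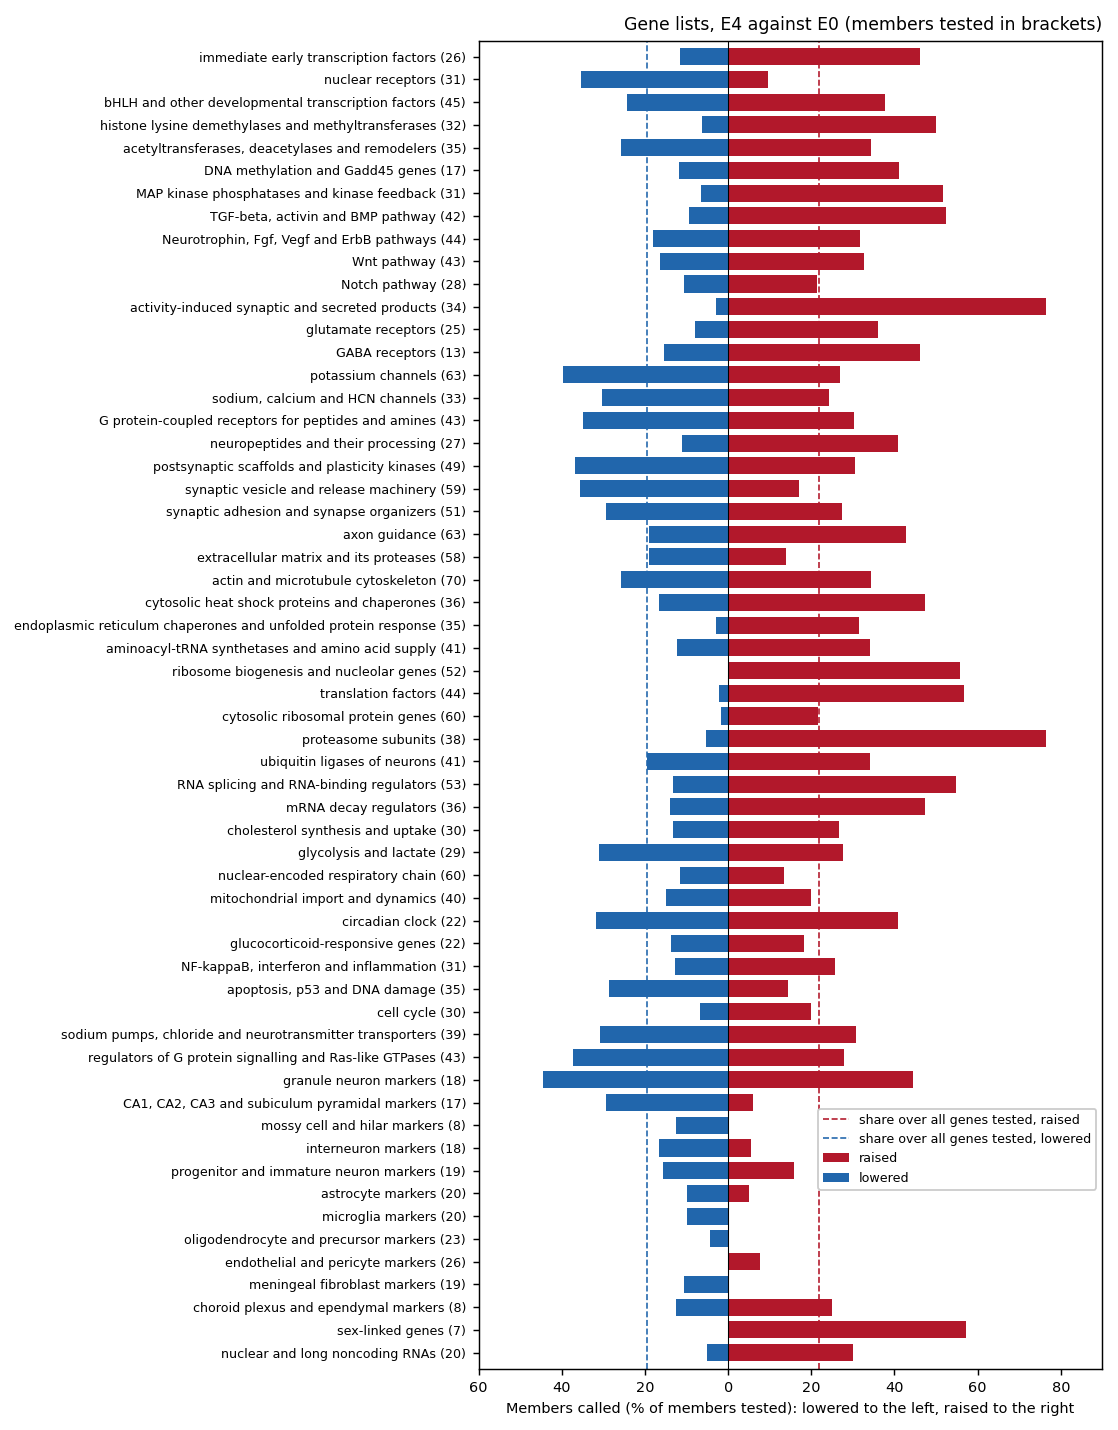
Share of the tested members of each gene list that were raised (red, to the right) or lowered (blue, to the left) in E4, with the number tested in brackets. Dashed lines mark the shares over all genes tested, 21.9% raised and 19.6% lowered, and proteasome subunits and activity-induced products extend furthest to the right while markers of glia and vessels stay short on both sides.

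The immediate early transcription factors were split. Of 26 measured members 12 rose, 3 fell and 11 were not called, with a median log2 fold change of 0.69. Klf10, given above, had the largest rise of the list, at 4.05 in the authors' deposited table. Others raised at a large size included Fosl2, a Fos-family member, at 1.66 ± 0.12, Csrnp1 at 2.41 ± 0.18 and Atf3, a stress-induced factor, at 2.20 ± 0.30 in the authors' deposited table. Fos and Npas4, a factor specific to neurons, were at 0.51 ± 0.30 and 0.33 ± 0.30, not called, beside 4.64 ± 0.21 and 2.98 ± 0.32 in E1, and Egr1 was raised at 0.71 ± 0.12 beside 3.72 ± 0.16 in the authors' deposited tables. For others no difference was called. Jun was at -0.08 ± 0.10, Egr4 at 0.17 ± 0.21 and Crem, a CREB relative, at 0.42 ± 0.20 in the authors' deposited table. The Nr4a orphan receptors split, with Nr4a1 at 0.67 ± 0.20 and, below E0, Nr4a3 at -0.99 ± 0.24 and Nr4a2 at -0.54 ± 0.23 in the authors' deposited table. In E1 these 3 stood at 4.63 ± 0.16, 4.86 ± 0.15 and 5.92 ± 0.15 in the authors' deposited table.

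Other transcription factors moved in both directions. Of 31 nuclear receptors 3 rose and 11 fell. Rara, a receptor for retinoic acid, had by far the largest rise among them, from an implied 44.9 to 710.5 (3.98 ± 0.19 in the authors' deposited table). The other risers were Nr3c2, the mineralocorticoid receptor, at 0.53 ± 0.09, and Pparg, the fat cell receptor, at 1.96 ± 0.36 in the authors' deposited table. The thyroid hormone receptor Thra fell (-0.64 ± 0.08), as did its partner Rxra (-0.78 ± 0.14) and the orphan receptor Nr2f1 (-0.49 ± 0.11) in the authors' deposited table. Nr3c1, the glucocorticoid receptor, was at -0.01 ± 0.12 and was not called in the authors' deposited table.

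Among 45 basic helix-loop-helix and other developmental factors, 17 rose and 11 fell. Bhlhe41, a repressor that also acts in the clock, rose from an implied 554 to 3699 (2.74 ± 0.12 in the authors' deposited table), and in E1 it was at -0.13 ± 0.18 and not called. The neuronal differentiation factors Neurod2 and Neurod1 had opposite calls, at 1.50 ± 0.10 and -1.49 ± 0.13 in the authors' deposited table. Sox11, a factor of immature neurons, rose by 2.26 ± 0.14, and Hes1, a target of Notch, by 2.33 ± 0.22 in the authors' deposited table. Lowered were Bhlhe22 (-1.83 ± 0.09), Foxo1, a factor restrained by insulin signalling (-1.53 ± 0.10), and Tbr1, a factor of glutamatergic neuroblasts (-1.93 ± 0.14) in the authors' deposited table.

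Genes of histone methylation leaned upward, and those of histone acetylation were called in both directions. Of 32 histone lysine demethylases and methyltransferases 16 rose and 2 fell, with a median of 0.27. The demethylases Kdm6b, which removes methyl groups from lysine 27 of histone H3, and Kdm7a were at 2.08 ± 0.13 and 1.43 ± 0.10, and Kdm3a and Kdm1a at 1.24 ± 0.13 and 0.71 ± 0.10 in the authors' deposited table. Dot1l, the methyltransferase of histone H3 lysine 79, rose by 1.66 ± 0.14 in the authors' deposited table. The members that fell were Ehmt2, also called G9a, at -0.66 ± 0.09, and Ezh1, at -0.60 ± 0.11 in the authors' deposited table, while Ezh2, the other catalytic subunit of the same complex, was at 0.95 ± 0.22. In the list of 35 acetyltransferases, deacetylases and remodelers 12 rose and 9 fell, against 5 and 6 at a log2 fold change of at least 0.5. The deacetylases Hdac11 and Hdac1 fell, at -1.11 ± 0.11 and -0.90 ± 0.11 in the authors' deposited table. Subunits of the chromatin remodeling complex BAF had opposite calls, with the core subunit Smarcc1 at 0.74 ± 0.12 and the ATPase Smarca2 at -0.82 ± 0.10 in the authors' deposited table. Of 17 genes of DNA methylation 7 rose and 2 fell. The list holds Gadd45b, a coupler of demethylation to repair, at 3.57 ± 0.18, the oxidases Tet3 and Tet2 at 1.43 ± 0.12 and 1.25 ± 0.15, and Dnmt1, the maintenance methyltransferase, at -0.47 ± 0.13 in the authors' deposited table.

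The activin and TGF-beta pathway held more raised than lowered genes. Ligands of this family bind pairs of receptor kinases that phosphorylate Smad proteins, which enter the nucleus, and induced inhibitors close the loop. Of 42 measured members 22 rose and 4 fell, with a median log2 fold change of 0.40. The list was chosen with earlier results of these data known. It holds Tll1, Pmepa1, Acvr1c, Inhba and Tgif2, which are among the genes named for the largest rises, so its direction is no independent result. Among ligands, Inhba, which forms activin A, went from an implied mean count of 29.7 to 279 (3.23 ± 0.21), and Tgfb3 from 72.3 to 340.1 (2.23 ± 0.18) in the authors' deposited table. Tll1, a protease that frees such ligands from their antagonists, went from 25.5 to 561, both implied by the authors' deposited table. Among receptors Acvr1 rose from 444 to 1852 (2.06 ± 0.13), whereas the activin receptor Acvr2a fell from 1218 to 667 (-0.87 ± 0.10) in the authors' deposited table. Of the Smad proteins Smad3 rose by 1.34 ± 0.11, and Smad2, its close relative, was at -0.23 ± 0.15 and not called in the authors' deposited table.

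Among members that hold the pathway back inside the cell, Smurf1, a ubiquitin ligase of Smad proteins, was at -0.27 ± 0.13 and not called, and its relative Smurf2 rose by 0.40 ± 0.13 in the authors' deposited table. Pmepa1, which holds Smad proteins away from receptors, went from an implied 349 to 4296 in the authors' deposited table. Of the inhibitory Smads, Smad7 rose by 2.24 ± 0.18 and Smad6 from an implied 12.9 to 25.7 in the authors' deposited table. The corepressors Skil and Ski rose by 2.23 ± 0.10 and 1.55 ± 0.10, and Tgif2 and Tgif1 by 3.07 ± 0.26 and 2.01 ± 0.40 in the authors' deposited table. The lowered members were Acvr2a, the coreceptor Tgfbr3 (-0.92 ± 0.20) and the secreted antagonists Chrd (-1.20 ± 0.14) and Fst (-0.74 ± 0.25) in the authors' deposited table. In E1 Smad3 stood at -0.58 ± 0.13, Skil at 1.21 ± 0.10 and Acvr1 at 0.67 ± 0.16 in the authors' deposited table.

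**Figure D5:**
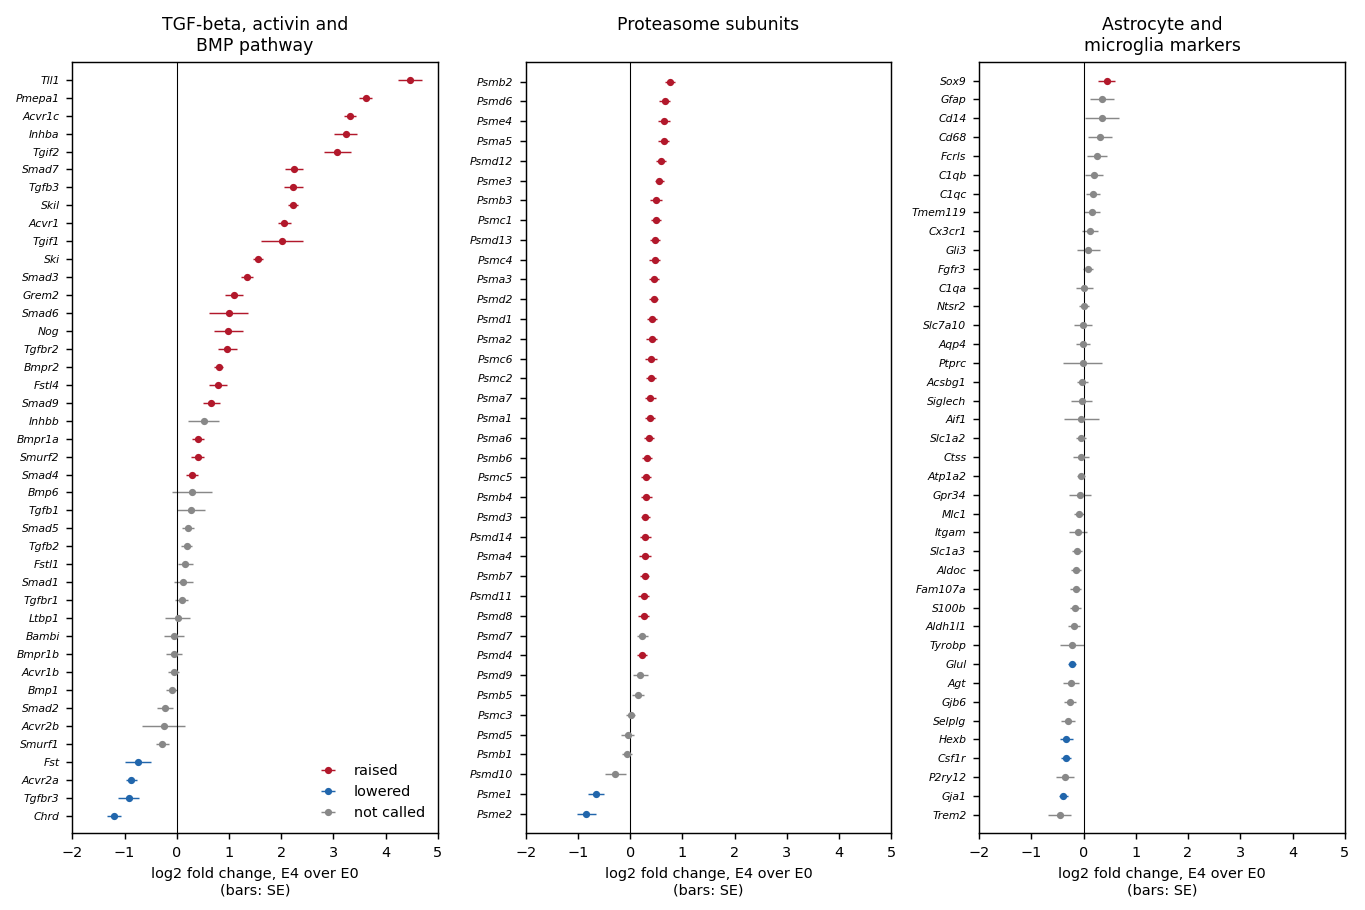
Log2 fold change of E4 over E0 (horizontal axis, bars are SE) of every measured member of 3 lists: the TGF-beta, activin and BMP pathway, proteasome subunits, and markers of astrocytes and microglia. Pathway members spread from Chrd below -1 to Tll1 above 4, proteasome subunits form a narrow shift to the right with Psme1 and Psme2 to the left, and glial markers scatter around 0.

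Kinase feedback genes also leaned upward. Of 31 phosphatases of MAP kinases and related feedback genes 16 rose and 2 fell. Pim1, a survival kinase, rose by 2.77 ± 0.28, Socs2, a brake on cytokine receptors, by 1.36 ± 0.27, and Sik3, a salt-inducible kinase, by 0.83 ± 0.13 in the authors' deposited table. The 2 that fell were the phosphatase Dusp3 (-0.63 ± 0.09) and the Ras inhibitor Rasa1 (-0.82 ± 0.13) in the authors' deposited table. Among 44 genes of neurotrophin, Fgf, Vegf and ErbB signalling 14 rose and 8 fell, which is 31.8% and 18.2% beside 28.4% and 22.4% of all genes at mean counts from 200 to under 1000. Vegfa, a growth factor for vessels and progenitors, rose from an implied 311 to 978 (1.65 ± 0.13 in the authors' deposited table). The receptors Fgfr1 and Fgfr2 rose by 0.74 ± 0.10 and 0.80 ± 0.16, and the ligand Fgf10 fell (-1.38 ± 0.26) in the authors' deposited table.

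In the Wnt pathway 14 of 43 genes rose and 7 fell, which is 32.6% and 16.3%. Among receptors Fzd7 and Fzd8 rose by 1.81 ± 0.20 and 1.17 ± 0.18 in the authors' deposited table. The ligand Wnt7b was at 0.66 ± 0.11, and Rspo3, a secreted amplifier of Wnt signals, fell (-1.97 ± 0.24) in the authors' deposited table. Notch genes were called in 32.1% of cases, with 6 raised and 3 lowered of 28. Those raised included Rbpj, the DNA-binding partner of Notch, at 2.05 ± 0.12, Notch1 at 1.29 ± 0.13, and Numbl, a Notch inhibitor, at 1.50 ± 0.10, and the ligand Jag1 was at -1.18 ± 0.21 in the authors' deposited table.

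Products of synapses and secretion were listed because neuronal activity is known to induce them, so their direction is no independent result. In E4, 26 of 34 measured members rose and 1 fell, with a median of 1.17. Pcdh8, an adhesion protein that promotes the uptake of N-cadherin from synapses, went from an implied 1404 to 6647 (2.24 ± 0.12), and Nedd9, a scaffold of focal adhesions, rose by 2.04 ± 0.15 in the authors' deposited table. Scg2, a granin, rose by 1.15 ± 0.08, and Rheb, the GTPase that activates mTOR, by 1.29 ± 0.10 in the authors' deposited table. Nptx2, a pentraxin that clusters glutamate receptors, Homer1, a postsynaptic scaffold, and the neurotrophin Bdnf rose by 3.10 ± 0.15, 1.18 ± 0.12 and 0.43 ± 0.12 in the authors' deposited table. The single member that fell was Adamts1, a matrix protease, at -1.48 ± 0.15 in the authors' deposited table. Members near E0 included Lonrf3 (0.14 ± 0.13) and Tiparp (-0.01 ± 0.17), which were not called and stood at 2.27 ± 0.12 and 2.05 ± 0.19 in E1 in the authors' deposited tables.

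Of 27 genes of neuropeptides and the proteins that process or store them 11 rose and 3 fell. Chga and Chgb, the chromogranins of dense-core vesicles, went from implied mean counts of 885 to 4649 and of 2584 to 9662 in the authors' deposited table. Chga was at -0.01 ± 0.16 in E1 and 2.39 ± 0.12 in E4, and Chgb at 1.32 ± 0.09 and 1.90 ± 0.10 in the authors' deposited tables. The convertases Pcsk5 and Pcsk1 rose by 1.52 ± 0.15 and 1.64 ± 0.20, and Npy, the neuropeptide whose receptors are named below, by 1.74 ± 0.30 in the authors' deposited table. Pdyn (dynorphin), Cck (cholecystokinin) and Scg5, a chaperone of the convertase Pcsk2, fell, at -0.77 ± 0.14, -0.74 ± 0.14 and -0.55 ± 0.13 in the authors' deposited table.

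Receptors for peptides and amines were called in both directions, with 13 raised and 15 lowered of 43, which is 65.1% called, and with 12 and 11 at an adjusted p below 0.01. Members of the same receptor family had opposite calls. The somatostatin receptors Sstr2 and Sstr3 rose, from an implied 228 to 1312 and from 292 to 1015, while Sstr1 fell from 608 to 213 in the authors' deposited table. Serotonin receptors also had opposite calls, with Htr5a at 2.20 ± 0.17 against Htr1a at -2.17 ± 0.15 in the authors' deposited table. Both dopamine receptors of the D1 type rose, Drd5 by 1.32 ± 0.12 and Drd1a by 1.78 ± 0.19 in the authors' deposited table. Adra2c, an adrenergic autoreceptor type, went from an implied 153 to 871 (2.51 ± 0.15 in the authors' deposited table). Of the receptors for neuropeptide Y, Npy2r fell as above and Npy1r and Npy5r fell, at -1.50 ± 0.13 and -0.84 ± 0.20 in the authors' deposited table.

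Among fast receptors and their relatives, of 25 glutamate receptor genes 9 rose and 2 fell. The NMDA receptor subunits Grin2a and Grin2b were at 0.94 ± 0.13 and 0.92 ± 0.31, and the obligatory subunit Grin1 at 0.30 ± 0.11 in the authors' deposited table. Grm2, a presynaptic metabotropic receptor, was at 0.95 ± 0.12 in E4 and -2.09 ± 0.18 in E1 in the authors' deposited tables. The AMPA receptor subunit Gria1 fell, at -0.35 ± 0.09, and Gria2 was at 0.18 ± 0.09 and not called in the authors' deposited table. Of 13 GABA receptor genes 6 rose and 2 fell. Gabra4 went from an implied 1772 to 3634 (1.04 ± 0.10), and Gabrd, the subunit that pairs with it in extrasynaptic receptors of granule neurons, from 615 to 185 (-1.74 ± 0.12) in the authors' deposited table.

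Potassium channel genes were called in 66.7% of cases, with 17 raised and 25 lowered of 63, a balance that turned to 12 raised and 8 lowered when p-values were taken from a t distribution with 4 degrees of freedom. Those that rose include Kcnip3, a calcium-binding partner of Kv4 channels also known as DREAM (1.90 ± 0.12), the leak channel Kcnk1 (1.28 ± 0.10), the Kv3 channel Kcnc4 (1.25 ± 0.11) and the Kv4 channel Kcnd3 (0.90 ± 0.10) in the authors' deposited table. Those that fell include the leak channel Kcnk2 (-1.35 ± 0.13), Kcnip2 (-0.85 ± 0.08), the silent subunit Kcnv1 (-1.42 ± 0.15) and the beta subunit Kcnab1 (-0.87 ± 0.10) in the authors' deposited table. The paralogs Kcnip3 and Kcnip2 went from implied mean counts of 853 to 3185 and of 3237 to 1790.0 in the authors' deposited table.

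Sodium, calcium and HCN channels gave 8 raised and 10 lowered of 33. The auxiliary calcium channel subunits Cacnb1 and Cacnb2 rose by 1.13 ± 0.09 and 0.73 ± 0.12 in the authors' deposited table. Sodium channel subunits that fell include Scn2b at -1.09 ± 0.12, Scn1a at -1.04 ± 0.15 and Scn3b at -0.84 ± 0.13 in the authors' deposited table. Among pumps and transporters 12 rose and 12 fell of 39, against 8 and 4 at a log2 fold change of at least 0.5 and 8 and 1 with a t distribution. The lowest value in this list was -0.72 and the highest 1.62. The creatine transporter Slc6a8 rose by 1.62 ± 0.12, and the vesicular zinc transporter Slc30a3 by 1.08 ± 0.11, and the sodium pump subunit Atp1b1 by 0.65 ± 0.08 in the authors' deposited table.

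In the release machinery falls outnumbered rises. Of 59 genes of synaptic vesicles and release 10 rose and 21 fell, with a median of -0.12. Rph3a, a Rab3 effector, fell from an implied 4568 to 2095 (-1.12 ± 0.09), and the synaptotagmins Syt3 and Syt4 were at -1.38 ± 0.13 and -0.75 ± 0.11 in the authors' deposited table. Dnm1, the dynamin of vesicle recovery, and Rab3a were at -0.63 ± 0.08 and -0.73 ± 0.11 in the authors' deposited table. Sv2c, a vesicle glycoprotein, rose by 1.99 ± 0.15 in the authors' deposited table. Of the 28 members not called, those of the highest mean count were Nsf at 0.01 ± 0.07, Syp at -0.08 ± 0.11, Snap25 at -0.11 ± 0.08 and the vesicular glutamate transporter Slc17a7 at 0.12 ± 0.09 in the authors' deposited table.

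On the postsynaptic side 15 of 49 scaffolds and plasticity kinases rose and 18 fell, a balance that turned to 12 and 7 at a log2 fold change of at least 0.5. Several members of the Dlgap scaffold family rose, with Dlgap2 at 1.58 ± 0.11, Dlgap3 at 0.94 ± 0.10 and Dlgap4 at 0.77 ± 0.09 in the authors' deposited table. The kinases Camkk1 and Camkk2 had opposite calls, at 0.67 ± 0.09 and -0.91 ± 0.10, and Rgs14, a scaffold that restrains plasticity in area CA2, fell (-1.62 ± 0.11) in the authors' deposited table. Dlg4, which encodes PSD-95, was at 0.11 ± 0.08 and not called in the authors' deposited table. Synaptic adhesion genes gave 14 raised and 15 lowered of 51. The cadherin Cdh2 and the latrophilin Lphn3 rose by 1.30 ± 0.08 and 1.91 ± 0.16, and the leucine-rich repeat proteins Lrrtm1, Slitrk5 and Slitrk2 fell, at -1.11 ± 0.09, -1.17 ± 0.10 and -1.23 ± 0.13 in the authors' deposited table.

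In the axon guidance list 27 genes rose and 12 fell of 63, a raised share of 42.9%. Of all genes, 28.4% were raised and 22.4% lowered at mean counts from 200 to under 1000. At 1000 or more the shares were 41.7% and 22.3%, so the excess of rises is not particular to this list. Its members were not compared with genes of like mean count. The list holds receptors of myelin-associated inhibitors, which limit axon growth. The Nogo receptors Rtn4r, Rtn4rl1 and Rtn4rl2 stood at 1.02 ± 0.10, 1.39 ± 0.12 and 2.07 ± 0.15, and the Lingo proteins Lingo2 and Lingo3 were at 1.49 ± 0.14 and 1.33 ± 0.10 beside Lingo1 in the authors' deposited table. The ephrin Efna3 rose by 1.84 ± 0.12, its receptor family members Ephb1 and Epha10 by 1.51 ± 0.14 and 1.03 ± 0.10, and the semaphorin Sema3e by 2.01 ± 0.18 in the authors' deposited table. In the extracellular matrix, with 8 raised and 11 lowered of 58, the proteoglycans of perineuronal nets Ncan and Acan rose by 1.15 ± 0.10 and 1.53 ± 0.18, and the net component Hapln4 was at -0.62 ± 0.22 in the authors' deposited table.

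The cytoskeleton list held 24 raised and 18 lowered of 70 genes, which is 34.3% and 25.7%. Of all genes at mean counts of 1000 or more, 41.7% were raised and 22.3% lowered. The neurofilament genes Nefm and Nefl rose by 1.47 ± 0.12 and 0.88 ± 0.11, as did Dclk1, a microtubule-binding kinase, at 1.43 ± 0.09, and Stmn4 at 1.34 ± 0.09 in the authors' deposited table. The alpha-tubulins Tuba1a and Tuba1c fell, at -0.54 ± 0.08 and -0.56 ± 0.08 in the authors' deposited table. These tubulin genes are close in sequence, and how shared reads were counted is not given in the sources used here, so their separate values are uncertain. Regulators of G protein signalling and Ras-like GTPases gave 12 raised and 16 lowered of 43, and 11 each at a log2 fold change of at least 0.5. Rgs7 and the Ras-like Rasl10a rose by 1.99 ± 0.12 and 1.78 ± 0.11, and Rasd2, also called Rhes, fell (-1.31 ± 0.14) in the authors' deposited table.

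The machinery that makes, folds and degrades proteins was covered by several lists, and the shares raised differed among them. Of 52 ribosome biogenesis genes 29 rose and 0 fell, with a median log2 fold change of 0.40, and at an unadjusted p below 0.05 in the authors' DESeq2 results 34 were higher and 0 lower. Ubtf, the factor that starts transcription of ribosomal RNA, rose from an implied 1799.8 to 4292 (1.25 ± 0.10 in the authors' deposited table). Fibrillarin (Fbl), nucleolin (Ncl) and the helicase Ddx21 rose by 1.07 ± 0.13, 0.71 ± 0.09 and 0.88 ± 0.11 in the authors' deposited table. Of 44 translation factors 25 rose and 1 fell, with a median of 0.36. The cap-binding complex genes Eif4a1, Eif4g1 and Eif4e were at 0.86 ± 0.08, 0.65 ± 0.09 and 0.61 ± 0.09, and the elongation factors Eef1a1 and Eef2 at 0.00 ± 0.09 and -0.02 ± 0.08, not called, in the authors' deposited table. Of 60 ribosomal protein genes 13 rose and 1 fell, which is 23.3% called, with a median of 0.11. The raised share of 21.7% is that of all genes within a percentage point, but the shares in the higher classes of mean count were larger. At mean counts from 200 to under 1000, 28.4% of all genes were raised and 50.9% called, and at 1000 or more 41.7% and 64.1%. None of the 60 was called with a t distribution or at a log2 fold change of at least 0.5. The largest statistic among them was that of Rps13, at 0.32 ± 0.09 in the authors' deposited table. Many processed copies of ribosomal protein genes exist, and how reads shared with them were counted is not given.

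Proteasome subunits were called in 81.6% of cases: 29 rose and 2 fell of 38, with a median of 0.34. Their differences were small, and 6 of the 29 rises reached a log2 fold change of 0.5. The largest were those of the catalytic core subunit Psmb2 (0.76 ± 0.10) and of the regulatory subunit Psmd6 (0.66 ± 0.11) in the authors' deposited table. The 2 that fell were Psme1 (-0.65 ± 0.15) and Psme2 (-0.84 ± 0.18), the subunits of the interferon-inducible activator PA28, and Psme3, their nuclear relative, rose by 0.56 ± 0.09 in the authors' deposited table. Proteasome genes are abundant, and 50.9% to 64.1% of all genes in the classes of mean count that hold most of them were called.

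Chaperones of the cytosol gave 17 raised and 6 lowered of 36. The heat shock proteins Hsp90aa1 and Hspa4 rose by 0.74 ± 0.10 and 0.72 ± 0.09, and the cochaperone Bag3 by 1.56 ± 0.20 in the authors' deposited table. Hspa2 fell (-1.23 ± 0.11), and the stress-inducible Hspa1a and Hspa1b were at -0.95 ± 0.20 and -0.94 ± 0.18 in the authors' deposited table. The last 2 are near-identical copies, so their separate counts are uncertain. In the endoplasmic reticulum 11 of 35 genes rose and 1 fell, among them the stress sensor Atf6 at 0.82 ± 0.09 and the factors Atf4 and Xbp1 at 0.63 ± 0.10 and 0.48 ± 0.10 in the authors' deposited table. Of 41 genes of tRNA charging and amino acid supply 14 rose and 5 fell, which is 34.1% and 12.2%. The synthetases Hars and Eprs rose by 1.10 ± 0.10 and 0.71 ± 0.10 and the glutamine carrier Slc38a2 by 0.94 ± 0.09, while Shmt1, a serine-converting enzyme, fell (-1.13 ± 0.23) in the authors' deposited table.

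In RNA processing, of 53 splicing and RNA-binding regulators 29 rose and 7 fell, with a median of 0.38. Celf2 rose from an implied 4570.3 to 10356 (1.18 ± 0.08), and Hnrnph1, Srsf5 and Srsf3 rose by 1.04 ± 0.09, 0.93 ± 0.10 and 0.72 ± 0.09 in the authors' deposited table. Rbfox3, the neuronal regulator detected as NeuN, went against them at -0.70 ± 0.09 in the authors' deposited table. Of 36 regulators of mRNA decay 17 rose and 5 fell. Ago2, the slicing Argonaute, rose by 1.44 ± 0.11 and Ago1 fell (-0.41 ± 0.09), and the deadenylase Cnot6l and the decay helicase Upf1 were at 0.72 ± 0.10 and 0.66 ± 0.12 in the authors' deposited table. Among 41 ubiquitin ligases and related genes 14 rose and 8 fell, which is 34.1% and 19.5%. Rnf19b and Trim9 rose by 1.20 ± 0.13 and 0.97 ± 0.09 and Fbxo3 fell (-1.17 ± 0.12) in the authors' deposited table.

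In energy metabolism, of 60 nuclear genes of the respiratory chain 8 rose and 7 fell, with a median of -0.00, which is 25% called. Of all genes at mean counts from 200 to under 1000 and of 1000 or more, 50.9% and 64.1% were called. The cytochrome Cycs was at 0.49 ± 0.09 and the abundant ATP synthase subunit Atp5b at 0.13 ± 0.07, not called, in the authors' deposited table. Mitochondrial import and dynamics gave 8 raised and 6 lowered of 40, with the phosphate carrier Slc25a3 at 0.74 ± 0.09 in the authors' deposited table. In glycolysis, with 8 raised and 9 lowered of 29 and 5 and 4 at a log2 fold change of at least 0.5, isoforms had opposite calls. Pfkp and Pfkm, isoforms of phosphofructokinase, were at 0.78 ± 0.09 and -0.50 ± 0.09, and Ldha and Ldhb, those of lactate dehydrogenase, at 0.54 ± 0.09 and -0.42 ± 0.09 in the authors' deposited table. The kinases Pdk2 and Pdk1, which switch off pyruvate dehydrogenase, fell, at -0.86 ± 0.09 and -0.93 ± 0.12 in the authors' deposited table. In cholesterol synthesis 8 of 30 genes rose and 4 fell, with Sc5d at 0.76 ± 0.13, Insig1 at 0.65 ± 0.11 and Mvk at -0.80 ± 0.19 in the authors' deposited table.

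Clock genes were called in 72.7% of cases, with 9 raised and 7 lowered of 22, a balance that turned to 4 and 7 with a t distribution and 6 and 7 at a log2 fold change of at least 0.5. The activators Npas2 and Arntl, which encodes BMAL1, rose by 1.75 ± 0.16 and 0.82 ± 0.13, and the repressor Cry1 by 1.34 ± 0.12 in the authors' deposited table. The output factors that carry a PAR domain fell. Hlf was given above, Tef went from an implied 6592 to 2658 (-1.31 ± 0.08) and Dbp from 404 to 168 (-1.26 ± 0.15) in the authors' deposited table. Per3 and the nuclear receptors Nr1d1 and Nr1d2, which repress Arntl, were lower as well, at -2.15 ± 0.17, -0.73 ± 0.09 and -0.87 ± 0.12 in the authors' deposited table. The labels give no hour of the day for either group, so time of day and stimulation cannot be told apart for these genes.

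Lists of stress, immunity and cell death follow. Of 22 tested glucocorticoid-responsive genes 4 rose and 3 fell, with Klf9 at 1.08 ± 0.10 and Fkbp5 at 0.54 ± 0.11 in E4 and 1.04 ± 0.12 and -1.21 ± 0.17 in E1 in the authors' deposited tables. Of 31 genes of inflammation 8 rose and 4 fell, against 4 and 4 at a mean count of at least 50 and 2 and 3 with a t distribution. The receptor subunit Il6ra rose by 1.74 ± 0.19 and Ptgs2, an inducible cyclooxygenase made by neurons, by 2.05 ± 0.30, while the chemokine Cxcl12 and the interferon signal carrier Stat2 fell, at -1.28 ± 0.13 and -0.90 ± 0.16 in the authors' deposited table. The cytokines Il1b, Il6 and Tnf were below the mean count of 10. Of 35 genes of apoptosis and DNA damage 5 rose and 10 fell, a balance that turned to 3 and 1 with a t distribution, with the survival factor Mcl1 at 0.95 ± 0.12 and Casp9, the initiator caspase, at -0.95 ± 0.16 in the authors' deposited table. Cell cycle genes gave 6 raised and 2 lowered of 30, and the replication helicase subunits Mcm2 and Mcm6 stood at 1.27 ± 0.20 and -1.90 ± 0.13 in the authors' deposited table. Mki67, the proliferation marker, was at 1.51 ± 0.23 at a mean count of 76.8, both from the authors' deposited table.

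Lists of markers for the cells of the labelled tissue were read as well. Of the granule neuron markers, Prox1 had a mean count of 2680.1, Dsp 2931 and Calb1 2677, as the authors' table gives them. Such levels are not corrected for gene length and do not compare genes, so they cannot test the labelled tissue. Among the 18 granule neuron markers 8 rose, 8 fell and 2 were not called, and with a log2 fold change of at least 0.5 there were 3 raised and 8 lowered. The nuclear markers Prox1 and Bcl11b were at 0.41 ± 0.10 and 0.40 ± 0.09, and the lowered markers included Dsp (desmoplakin) at -1.05 ± 0.12, Calb1 (calbindin) at -0.78 ± 0.11 and Plk5 at -1.72 ± 0.15 in the authors' deposited table. Glial and vascular markers were called in 4.3% to 15% of cases, list by list, beside 41.5% of all genes tested. That share ran from 14.0% in the lowest class of mean count to 64.1% in the highest. The markers were not compared with genes of like mean count. In astrocytes 1 rose and 2 fell of 20, with the connexin Gja1 at -0.39 ± 0.09 in the authors' deposited table. In microglia 0 rose and 2 fell of 20, in oligodendrocytes and their precursors 0 and 1 of 23, and in endothelial cells and pericytes 2 and 0 of 26. At an unadjusted p below 0.05 in the authors' DESeq2 table the higher and lower members were 0 and 5 in microglia, 0 and 2 in oligodendrocytes and their precursors, and 4 and 1 in endothelial cells and pericytes.

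Among neurons of other kinds, pyramidal cell markers of the CA fields gave 1 raised and 5 lowered of 17 and 1 and 0 with a t distribution, with Fibcd1 at 1.48 ± 0.16 and Wfs1 at -0.60 ± 0.16 in the authors' deposited table. In E1 Fibcd1 was at -0.77 ± 0.24 in the authors' deposited table. Interneuron markers gave 1 raised and 3 lowered of 18, with Gad1 at 0.31 ± 0.08 and Lamp5 at -1.68 ± 0.17 in the authors' deposited table. Mossy cell markers gave 0 raised and 1 lowered of 8, with Rgs12 at -0.38 ± 0.16 in the authors' deposited table, and at an unadjusted p below 0.05 in these DESeq2 results 1 was higher and 2 lower. Markers of progenitors and immature neurons gave 3 raised and 3 lowered of 19, with Dpysl5 at 1.74 ± 0.11 and the neuroblast protein Dcx at -0.07 ± 0.18, not called, in the authors' deposited table.

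Meningeal and choroid plexus genes bear on 2 of the largest differences. Ogn (osteoglycin), a matrix protein of fibroblasts, fell from an implied 194 to 18.5 in the authors' deposited table. Of 19 meningeal fibroblast markers 0 rose and 2 fell, and the other that fell was Lum (-1.14 ± 0.33), while Igf2 was at -0.35 ± 0.39, Igfbp2 at 0.05 ± 0.17 and Islr at 0.32 ± 0.16, not called, in the authors' deposited table. At an unadjusted p below 0.05 in the authors' DESeq2 results 2 of these markers were higher and 3 lower. Prlr, the prolactin receptor, is also a choroid plexus gene and rose by 3.70 in the authors' deposited table. Of 8 measured choroid plexus and ependymal markers, Prlr among them, 2 rose and 1 fell, and 10 more were below the mean count of 10. The defining plexus gene Ttr had a mean count of 30.9 and a log2 fold change of -0.37 ± 0.35, not called, in the authors' deposited table. The part of such tissue in these values was not tested further. The haemoglobin genes Hbb-b1 and Hba-a1 were listed at a mean count of 0, and Xist, which marks female cells, had 0.308, both from the authors' deposited table.

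Among 20 long noncoding RNAs 6 rose and 1 fell, against 0 and 1 with a t distribution. Neat1, which builds nuclear paraspeckles, stood at 3.12 ± 0.19 in E1 and 0.78 ± 0.19 in E4, and Kcnq1ot1, an imprinted antisense RNA, at 5.30 ± 0.17 and 0.84 ± 0.21 in the authors' deposited tables. Peg13, another imprinted RNA, fell (-0.69 ± 0.09), and Malat1 was at 0.64 ± 0.29 and not called in the authors' deposited table. Whether strand was used in counting is not given in the sources used here, so reads of an antisense RNA and its overlapping gene cannot be told apart.

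Gene span, the distance from the first to the last base of a gene in the RefSeq gene table (assembly GRCm38.p6), had a median of 30300.0 bases for raised genes (2948 of 2955 matched), 27022.5 for lowered genes (2626 of 2637) and 22485.0 for genes not called (7851 of 7881). Genes raised by at least 1 on the log2 scale had a median span of 30478.0 bases and those lowered by as much 31476.0. The share of genes called rose with mean count, and spans were not compared at like mean counts.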

How the data were processed

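Sequencing covered dentate gyrus RNA of single mice, 3 libraries for each group (E0, E1, E4), per the labels. The submitters' processing notes name TopHat2, DESeq2 and the build mm9 and give no versions. Counting program, annotation, strand and model formula: not given in the sources used here. Used here were the authors' deposited tables of E4 against E0 and E1 against E0, which hold no value per library, so errors are the authors' standard errors (SE) and no SD or library number stands beside a value.

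The signal in the deposited tables is a mean count, which is the average of size-factor-scaled counts over the libraries of 1 table, per the file headers, and levels of the 2 tables are not on a common scale. The deposited log2 fold changes and SEs are the authors' estimates. They appear shrunken toward 0, since the median absolute log2 fold change was 0.106 at a mean count below 1, so changes of low genes are understated. No header names the groups, and positive values were read as higher in E4, the direction in which Arc and Nptx2, known to be induced by activity, are raised. The deposited score equals the log2 fold change divided by its SE. The deposited p-value follows from that score under a normal distribution, two-sided, and was adjusted by the authors over 14455 genes with the Benjamini-Hochberg method, which recomputing gave back. Missing adjusted p-values stayed missing. A spreadsheet had turned 27 symbols of the E1 table into dates, and these were not joined.

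Described are genes at a mean count of 10 or more, and a call needs an authors' adjusted p under 0.05. Steps of single reads in the mean counts gave the approximate reads per library. These totals were about 6140000 to 13550000, and the median SE was 0.150 on the log2 scale. Counting error and variation between mice both enter the SE and were not separated. The members and the 59 gene lists were chosen with earlier results of these data known, and no list was tested. Genes named by size are, among called genes at a mean count of 50 or more, the 25 highest and 25 lowest log2 fold changes, with the 10 each way of the largest statistic. From each list up to 10 genes with the smallest adjusted p and up to 4 genes not called, of the highest mean count, could be named, and so could Frzb, Gadd45b, Nptx2, Homer1, Bdnf, Egr1, Npas4, Arc and Fos. Acvr2a, Bcl11b, Cck, Chrd, Dcx, Drd1a, Fst, Hapln4, Hspa1a, Npy5r, Nr4a1, Nr4a2, Nr4a3, Pdyn, Prox1, Psme1, Scg5, Smad2, Smad6, Smurf1, Smurf2, Tgfbr3, Tgif1, Tuba1a and Tuba1c were chosen after their values were seen. Some members of the lists are not reported by name here.

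The alternatives were an adjusted p below 0.01, a mean count of at least 50 or none, adjustment anew over the genes described, subtraction of the median log2 fold change, p-values from a t distribution with 4 degrees of freedom, and a minimum log2 fold change of 0.5. The counting of calls was tested on simulated data. Promoter sequences and gene spans are from RefSeq tables of GRCm38.p6, matched by symbol. Python 3.11.15 with pandas 2.3.3, numpy 2.4.6, scipy 1.17.1 and matplotlib 3.10.9 was used.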

Additional observations from a re-analysis of the deposited data

How the results depend on the processing

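With p-values from a t distribution with 4 degrees of freedom in place of the normal distribution, 1067 genes were raised and 749 lowered, 1816 in all, against 2955, 2637 and 5592 as reported. With a minimum log2 fold change of 0.5 there were 1729 raised and 1713 lowered, 3442 in all. Both settings make fewer calls by construction. Under the other 5 alternatives named above the counts stayed within 1.5 times, from 4317 calls at an adjusted p below 0.01 to 5674 with adjustment anew. Raised genes made up 52.8% of calls as reported and 50.2% to 58.8% under the alternatives. The 62 genes named by size or statistic kept their direction and their side of the threshold under all 7. They were picked as the largest in the same estimates that the alternatives reuse, so this was largely fixed in advance. Of the 6 others named singly, Bdnf was no longer called with the t distribution (adjusted p = 0.0877) or at the minimum of 0.5, and the other 5 kept theirs wherever they were counted. Of the 59 gene lists, the sign of raised minus lowered members was kept under all 7 in 38 and changed or became 0 under at least 1 in 21. These are the lists of potassium channels, amine and peptide receptors, pumps and transporters, postsynaptic genes, histone acetylation, G protein regulators, ribosomal proteins, glycolysis, the clock, inflammation, apoptosis, long noncoding RNAs, and markers of granule neurons, pyramidal, mossy and immature cells, astrocytes, microglia, oligodendrocytes, vessels and choroid plexus. Raised ribosome biogenesis genes numbered 29 as reported, 19 with the minimum of 0.5 and 9 with the t distribution, raised splicing regulators 29, 16 and 12, raised proteasome subunits 29, 6 and 8, and lowered release genes 21, 10 and 11. Postsynaptic genes, with 15 raised and 18 lowered, had 13 and 12 at an adjusted p below 0.01. No paired analysis was possible because the tables hold no values per library, and leaving out a library was not run for the same reason. Motif shares between sets of called genes were counted but are not given, since too few genes had a promoter sequence.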

Other observations

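Families read from the letters before the first digit of a symbol gave further counts, chosen after the values were seen and read beside the 21.9% raised and 19.6% lowered of all genes. The DEAD-box RNA helicases of the Ddx series had 18 raised and 1 lowered of 35, and the DEAH-box helicases of the Dhx series 8 raised and 0 lowered of 16, which at an unadjusted p below 0.05 in the authors' DESeq2 results was 8 higher and 0 lower. Dhx9 was at 0.44 ± 0.09 and Dhx8 at 0.66 ± 0.11 in the authors' deposited table. The Taf genes, most of which encode subunits that assist the TATA-binding protein, had 9 raised and 0 lowered of 21, with 10 higher and 0 lower at an unadjusted p below 0.05 in the same results, and Taf4a rose by 1.31 ± 0.14 in the authors' deposited table. Ubiquitin pathway genes of the Ube series had 15 raised and 2 lowered of 37, led by Ube2g2 at 1.07 ± 0.10 in the authors' deposited table.

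Palmitoyl transferases of the Zdhhc series, which attach fatty acids to many synaptic proteins, had 11 raised and 2 lowered of 21. Zdhhc18 rose by 1.46 ± 0.14 and Zdhhc2, which acts on PSD-95, by 1.34 ± 0.16, and Zdhhc15 fell (-1.15 ± 0.20) in the authors' deposited table. Aldehyde dehydrogenases of the Aldh series had 0 raised and 8 lowered of 16, with 0 higher and 8 lower at an unadjusted p below 0.05 in the authors' DESeq2 results. Aldh2, the mitochondrial enzyme of ethanol metabolism, was at -0.96 ± 0.10 and Aldh5a1, which clears the product of GABA breakdown, at -0.42 ± 0.10 in the authors' deposited table. Cytochromes P450 of the Cyp series had 1 raised and 7 lowered of 21. Cyp7b1, a hydroxylase of oxysterols and neurosteroids, fell (-1.32 ± 0.14), and Cyp46a1, which turns brain cholesterol into the form that leaves the brain, fell (-0.50 ± 0.09) in the authors' deposited table.

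Genes of the Y chromosome with a close relative on the X chromosome gave like values within each pair in 2 cases. Eif2s3y was at 0.93 ± 0.16 and Eif2s3x at 0.61 ± 0.12, and Ddx3y at 0.69 ± 0.15 and Ddx3x at 0.55 ± 0.10 in the authors' deposited table. How reads shared within such pairs were counted is not given, so the separate values are uncertain. Uty was at 0.11 ± 0.17 and Kdm6a, its relative, at -0.23 ± 0.14, both not called in the authors' deposited table.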
